A study of Drosophila melanogaster with 30 samples.

Results

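The MCM genes encode the subunits and a close partner of the replicative DNA helicase, and their mRNA was followed here in fly cells depleted of proteins that control cell-cycle transcription. The members were chosen by name as Mcm2, Mcm3, Mcm5, Mcm6, Mcm7, Mcm10 and the MCM4 gene, which the array annotation lists as dpa (disc proliferation abnormal), 7 genes in all. Each gene was read from its brightest probe set assigned to a single gene. Of these 7 genes, 6 had such a probe set, exactly 1 each, among 10844 genes with one, and all 6 passed the filter on dim signals. No probe set could be assigned to Mcm7 in the annotation used here, and Mcm7 was not analysed.

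The cells were Kc cells, an established Drosophila line of embryonic origin with hemocyte-like character, described by the submitters as tetraploid and female. The cells were exposed to RNAi for 4 days before total RNA was hybridised to 1-colour Affymetrix arrays, 30 in all, 3 in each of 10 groups. The Control group received a nonspecific RNA made from a pBSK+ plasmid (SK+). The other groups received RNA against Mip40, Mip120, Mip130, Lin-52, Myb, E2F2, RBFs (RBF1 and RBF2 together), E2F1 or L(3)MBT. The E2F1 group is named in the sample labels and not in the study's design text. Whether the 3 arrays in a group stand for independent cultures is not stated, so p-values measure the spread between these arrays, which may be technical. All 9 comparisons with Control share its 3 arrays.

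As background, MCM subunits form a ring that is loaded on DNA at replication origins before S phase, a step called licensing. The origin recognition complex, Cdc6 and the Cdt1 protein (dup in the fly) load the ring, and Cdc45 and the GINS complex turn it into the active helicase. Mcm10 is not a subunit of the ring and acts when the loaded helicase is started. In flies, E2F1 with its partner Dp activates many S-phase genes, whereas E2F2 and the retinoblastoma proteins RBF1 and RBF2 repress E2F targets. Mip40, Mip120, Mip130, Lin-52 and Myb are subunits of the Myb-MuvB/dREAM complex, which also contains E2F2 and an RBF protein, and L(3)MBT is a chromatin protein found with it. The study's design addresses which genes depend on each of these proteins.

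Facts of the whole series bear on these values as follows. Each array correlated best with an array of its own group in 30 of 30 cases, and all 8 knockdown targets that could be tested had a lower mean in their own knockdown. The mean E2f1 signal was 8.83 in Control and 7.61 in the E2F1 knockdown on the log2 scale. Some falls were smaller: l(3)mbt went from 6.73 to 6.37, Rbf2 from 7.54 to 7.10 and mip130 from 6.26 to 5.78. Rbf2 was lower still in the E2F1 knockdown, at 6.74. Other targets had lower means there than in Control as well: mip120 went from 7.94 to 7.18 and lin-52 from 7.70 to 6.94. The differences were smaller for mip130, mip40, E2f2 and l(3)mbt. Myb had no probe set assigned to it alone and Rbf did not pass the filter, so neither could be checked. The hemocyte genes Hml, Ppn and Pxn had high signals in Control (11.27, 10.95 and 9.96), whereas NimC1, Sr-CI, crq and eater lay at 3.45, 3.38, 4.78 and 5.41. The latter values fall within the range of 23 control probe sets without a fly target, whose Control means ran from 3.16 to 6.22. That range is used below as the background level of the arrays.

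The largest movement of the MCM genes was their fall in the E2F1 knockdown. All 6 genes fell, and the median change was -1.46 on the log2 scale, against -0.05 for all 7794 probe sets tested. At an adjusted p of 0.05 in limma, with Benjamini-Hochberg adjustment over all probe sets tested, 31.3% of probe sets were lower and 22.9% were higher in this comparison. These were 2442 and 1784 probe sets, and after cyclic loess 1905 were lower and 2148 higher, with all 6 MCM genes still lower. The fall was largest for Mcm5 and Mcm2, which were left at 26.8% and 27.5% of the control signal. Mcm10 was at 70.4%, with a signal that then lay within the background level of the arrays, so its fall may be understated.

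Mcm2, a ring subunit, had log2 signals of 8.73, 8.65 and 8.54 on the Control arrays and of 6.66, 6.77 and 6.89 on the E2F1 arrays. Every E2F1 array lay far below every Control array. The difference was -1.86 (95% confidence interval -2.02 to -1.71, limma adjusted p = 1.23e-18), the fourth lowest among all probe sets tested. Mcm3, the next subunit, had signals of 8.79, 8.81 and 8.79 in Control and of 7.29, 7.26 and 7.27 after E2F1 knockdown. The arrays within each of these groups were nearly level, and the difference was -1.52 (-1.63 to -1.41, limma adjusted p = 7.36e-20). Mcm3 was left at 34.8% of its control signal.

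The MCM4 gene dpa had signals of 9.77, 9.74 and 9.66 in Control and of 8.40, 8.34 and 8.24 in the E2F1 knockdown. The groups were separate, and the difference was -1.40 (-1.52 to -1.28, limma adjusted p = 1.50e-18), leaving 38.0% of the signal. Mcm5 had signals of 8.29, 8.34 and 7.88 in Control, where the third array was low, and of 6.12, 6.51 and 6.18 after E2F1 knockdown. Its difference was -1.90 (-2.09 to -1.71, limma adjusted p = 7.94e-17), the third lowest of all probe sets tested. The E2F1 arrays with 6.12 and 6.18 lay close to the top of the background range on the same arrays, 6.13 as a group mean.

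Mcm6, the remaining ring subunit measured, had signals of 7.74, 7.82 and 7.61 in Control and of 6.62, 6.71 and 6.59 in the E2F1 knockdown. It fell by 1.08 on the log2 scale (limma adjusted p = 1.15e-14), to 47.2% of control. Mcm10, the firing factor, had signals of 6.66, 6.52 and 6.35 in Control and of 5.82, 6.10 and 6.07 after E2F1 knockdown. Its groups were also separate, with a difference of -0.51 (-0.76 to -0.25, limma adjusted p = 9.54e-04). All 3 of these low Mcm10 values lay inside the background range, so the fall of Mcm10 may be larger than measured. Whether its probe set had reached its own floor was not tested. Mcm10 was above its array's median on 16 of 30 arrays, and none of them was an E2F1 array.

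In bulk RNA, a smaller share of cells in S phase and less MCM mRNA per cell cannot be told apart. On the E2F1 arrays the 9 hybridisation spikes differed from Control by a median of -0.76, and the 3′ GAPDH control probe set was higher by 1.13. Their part in the result was not tested. The falls of the ring subunits changed little when arrays were rescaled: under quantile normalization they ran from -1.06 for Mcm6 to -1.90 for Mcm5.

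**Figure D1:**
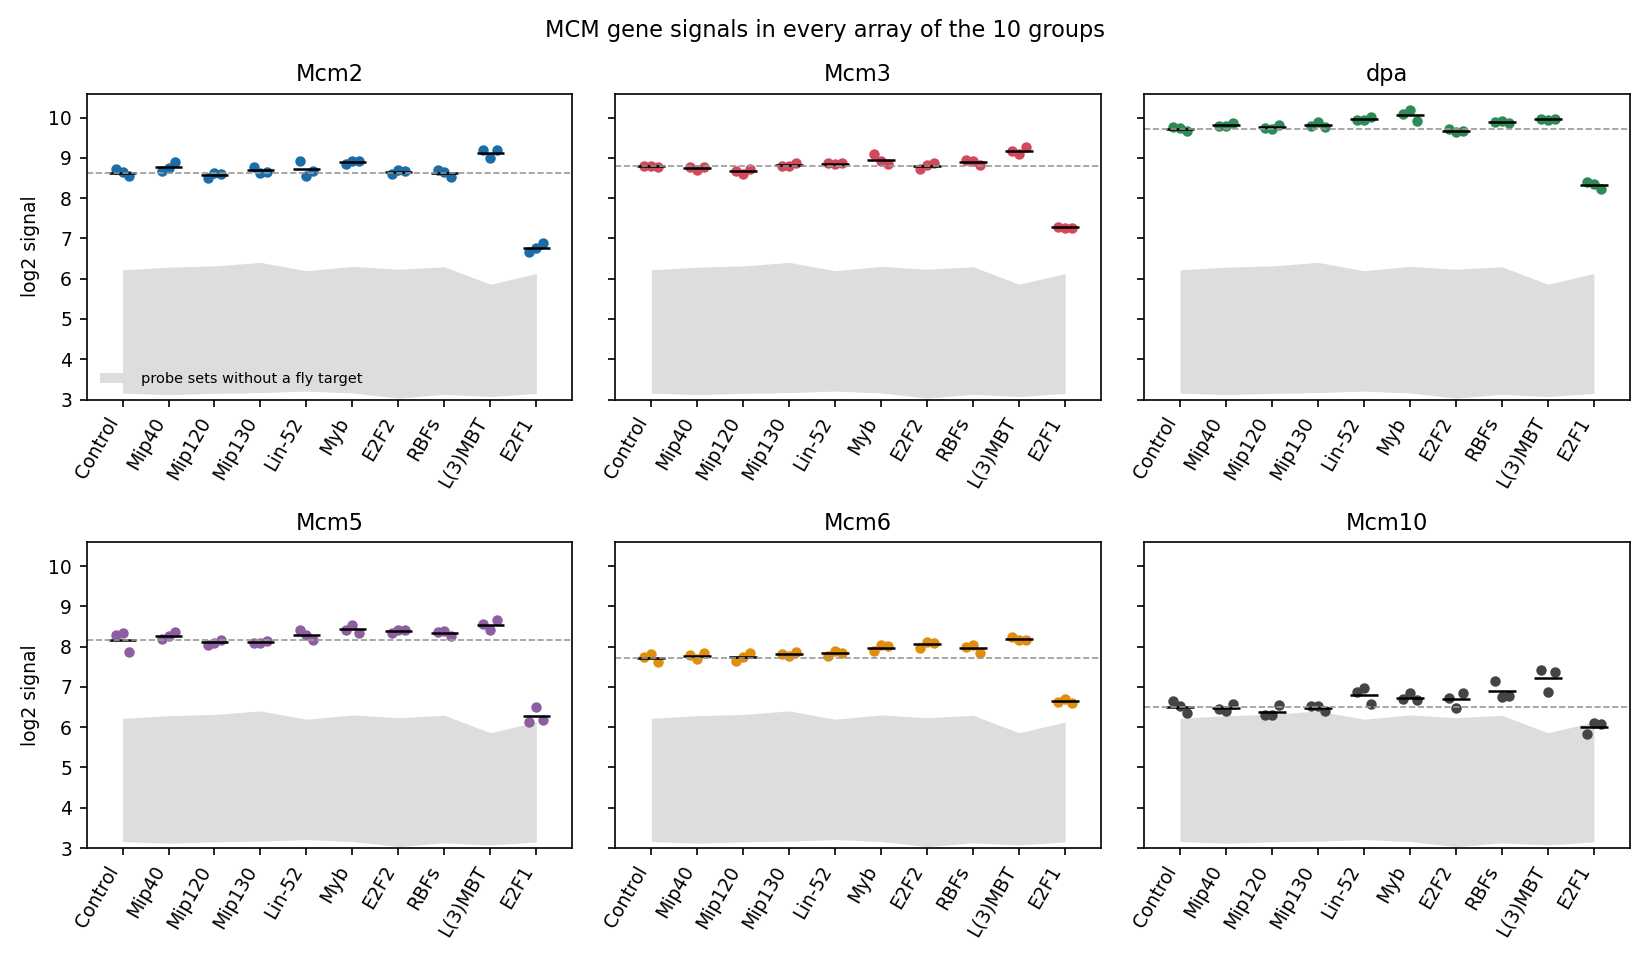
Log2 signal (vertical axis) of each of 6 MCM genes on every array (points), with group means (short lines), the Control mean (dashed) and the range of group means of 23 probe sets without a fly target (grey). The E2F1 arrays sit below all other groups in each panel, and those of Mcm10, at 5.82 to 6.10, lie within the grey range.

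The E2F1 group was set directly against groups with no shared control arrays. In E2F2 against E2F1, all 6 genes were higher in the E2F2 knockdown, by 0.69 for Mcm10 to 2.12 for Mcm5, with limma adjusted p from 4.82e-20 to 2.35e-05. Over all probe sets 31.2% were higher and 21.8% lower in that comparison. In RBFs against E2F1, all 6 were higher in the RBFs knockdown, by 0.90 for Mcm10 to 2.07 for Mcm5, beside 26.7% of probe sets higher and 20.8% lower. Both comparisons use the same E2F1 arrays.

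In the L(3)MBT knockdown the MCM genes moved the other way. All 6 rose, with a median change of 0.42, against 0.02 for all probe sets tested. After quantile normalization 4 rose, and these medians were 0.22 and -0.04. The comparison was broad: 38.9% of probe sets were called higher and 34.6% lower, so a rise was common on these arrays. Of the probe sets, 3028 were higher and 2695 lower as deposited, and 3667 and 1949 after centring each array on its median. Mcm10 rose most, to 164% of control, and dpa least, to 117%.

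Mcm10 had signals of 7.42, 6.88 and 7.37 on the L(3)MBT arrays, all above the highest Control array at 6.66. The difference was 0.71 (0.46 to 0.97, limma adjusted p = 9.73e-06). Mcm2 had signals of 9.19, 9.01 and 9.19, again above all Control arrays, and rose by 0.49 (limma adjusted p = 2.19e-06). Mcm6 had signals of 8.23, 8.16 and 8.17 and rose by 0.46 (limma adjusted p = 4.44e-07). These 3 genes kept their sign and call under each of the 3 rescalings, but the rise of Mcm2 shrank to 0.26 after quantile normalization, while those of Mcm6 and Mcm10 were 0.35 and 0.72.

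Mcm3 had signals of 9.17, 9.10 and 9.26 on the L(3)MBT arrays and rose by 0.39 (limma adjusted p = 5.34e-07). Mcm5 had signals of 8.55, 8.40 and 8.66 and rose by 0.37 (limma adjusted p = 9.51e-04), and dpa had signals of 9.98, 9.93 and 9.97 and rose by 0.23 (limma adjusted p = 8.36e-04). No L(3)MBT array overlapped the Control range for any of the 3 genes. The rise of dpa did not survive rescaling: its difference was 0.0038 after cyclic loess and turned to -0.06 after quantile normalization (limma adjusted p = 0.953 and 0.366). Mcm5 kept its sign under quantile normalization at 0.19 but lost its call (limma adjusted p = 0.0594), and Mcm3 kept both at 0.16. The middle 18S rRNA control probe set read 11.1 to 11.6 on the L(3)MBT arrays and 5.51 to 6.25 on the Control arrays. The 3′ minus 5′ difference of the actin control probe sets was 0.92 there, the highest of the 10 groups, and 0.56 in Control, and the 3′ GAPDH probe set was 1.003 higher than in Control. Their part in the result was not tested. Centring each array on its median moved the median of all probe sets in this comparison to 0.12, and the MCM differences then ran from 0.33 to 0.82.

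**Figure D2:**
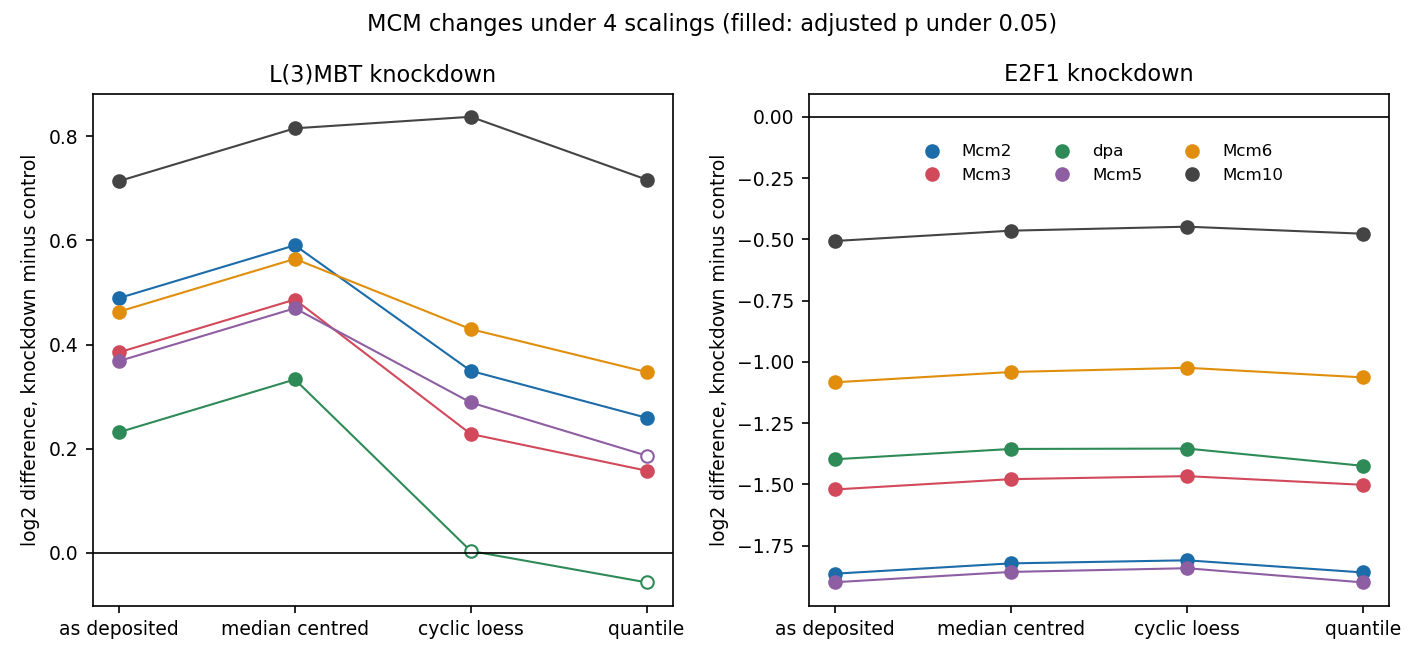
Log2 difference from Control (vertical axis) of the 6 MCM genes in the L(3)MBT (left) and E2F1 (right) knockdowns, as deposited and after 3 rescalings of the arrays, with filled points where the limma adjusted p was under 0.05. The E2F1 values stay nearly level, whereas dpa in the L(3)MBT knockdown goes from 0.23 to -0.06.

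The Myb knockdown gave the next most uniform shift. The group means were 0.17 to 0.33 above Control for all 6 genes, and 3 of them rose. No Myb array overlapped the Control range for any of the 6, but the gap between the lowest Myb and the highest Control array ran from 0.0035 for Mcm5 to 0.14 for dpa. In this comparison 2.36% of all probe sets were called higher and 3.43% lower. The gene dpa had signals of 10.08, 10.19 and 9.91 on the Myb arrays and rose by 0.33 (0.21 to 0.45, limma adjusted p = 1.88e-04), and the Myb group was its highest of all 10 groups. Mcm6 had signals of 7.88, 8.05 and 8.01 and rose by 0.26 (limma adjusted p = 0.0138). It lost its call with array weights (limma adjusted p = 0.0923) and in an unpaired fit of the 6 arrays alone (0.148). The call was also lost without the third Control array (0.111) and without the second (0.0836) or the third (0.05001) Myb array. Mcm2 had signals of 8.86, 8.91 and 8.92 and rose by 0.26 (limma adjusted p = 0.0427). With the replicate number as a block over all arrays, the adjusted p of Mcm2 was 0.0523 and 2 genes were called. Mcm2 lost its call in 9 of 18 alternative fits. Among these were the fits without the first, the second or the third Myb array (limma adjusted p = 0.0682, 0.109 and 0.103). In a paired fit of the 6 Myb and Control arrays alone, chosen after seeing the data, 4 genes were called, and Mcm5 was among them (limma adjusted p = 0.0358). That fit called 543 of all probe sets tested, and that the arrays are paired is not established.

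The other members had differences of similar size and larger adjusted p. Mcm3 had signals of 9.09, 8.94 and 8.85 on the Myb arrays and differed by 0.17 (limma adjusted p = 0.0864), Mcm5 by 0.26 (0.127) and Mcm10 by 0.23 (0.429). Mcm3 passed after quantile normalization (limma adjusted p = 0.0255), after cyclic loess (0.0306), with array weights (0.00154) and without the third Myb array (0.0181), and Mcm5 passed without the second Control array (0.0471). The count of calls rested on single arrays: it was 1 without the third Control array, 1 without the second Myb array, and 0 when only the 6 arrays of the comparison were fitted without pairing. Against Mip130, another subunit of the complex, 2 genes were higher in the Myb knockdown, dpa by 0.24 (limma adjusted p = 0.00414) and Mcm5 by 0.32 (limma adjusted p = 0.0225). The background of that comparison was 6.74% higher and 5.71% lower. No call was left there without the second Myb array.

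Depletion of the repressors gave small and unequal changes. In the E2F2 knockdown only Mcm6 of the 6 genes passed the test, where 16.4% of probe sets were higher and 9.12% lower. Mcm6 had signals of 7.97, 8.13 and 8.10 and rose by 0.34 (0.21 to 0.48, limma adjusted p = 3.11e-04), all 3 arrays lying above Control. Mcm5 was also above the Control range, with a difference of 0.22 (limma adjusted p = 0.0857), and it passed without the second Control array. The differences of Mcm2, Mcm3 and dpa were 0.02, 0.01 and -0.05, and their intervals together spanned -0.17 to 0.18. Quantile normalization called dpa lower in the E2F2 knockdown.

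In the RBFs knockdown 3 genes rose, beside 11.5% of probe sets higher and 11.9% lower. Mcm10 had signals of 7.16, 6.75 and 6.78 and rose by 0.39 (limma adjusted p = 0.0217), with the first array highest. Mcm6 had signals of 8.003, 8.05 and 7.84 and rose by 0.24 (limma adjusted p = 0.00799), and dpa had signals of 9.88, 9.91 and 9.88 and rose by 0.16 (limma adjusted p = 0.0409). All 3 lay above the Control range. Mcm2 had signals of 8.69, 8.64 and 8.53, which overlapped Control, and its difference was -0.02 (-0.17 to 0.14). These calls were fragile. Without the third Control array 0 genes were called. Without the second Control array, or without the first or the second RBFs array, 1 was called. The call of dpa was lost whichever Control or RBFs array was left out (limma adjusted p from 0.0504 to 0.151).

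RBFs and E2F2 were compared directly as well. One gene differed, dpa, which was 0.22 higher in the RBFs knockdown (0.10 to 0.34, limma adjusted p = 0.00687), where 9.49% of probe sets were higher and 15.4% lower. The intervals for the other 5 genes all held 0 and together ran from -0.24 to 0.46, which leaves differences of moderate size undetected, most of all for Mcm10.

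**Figure D3:**
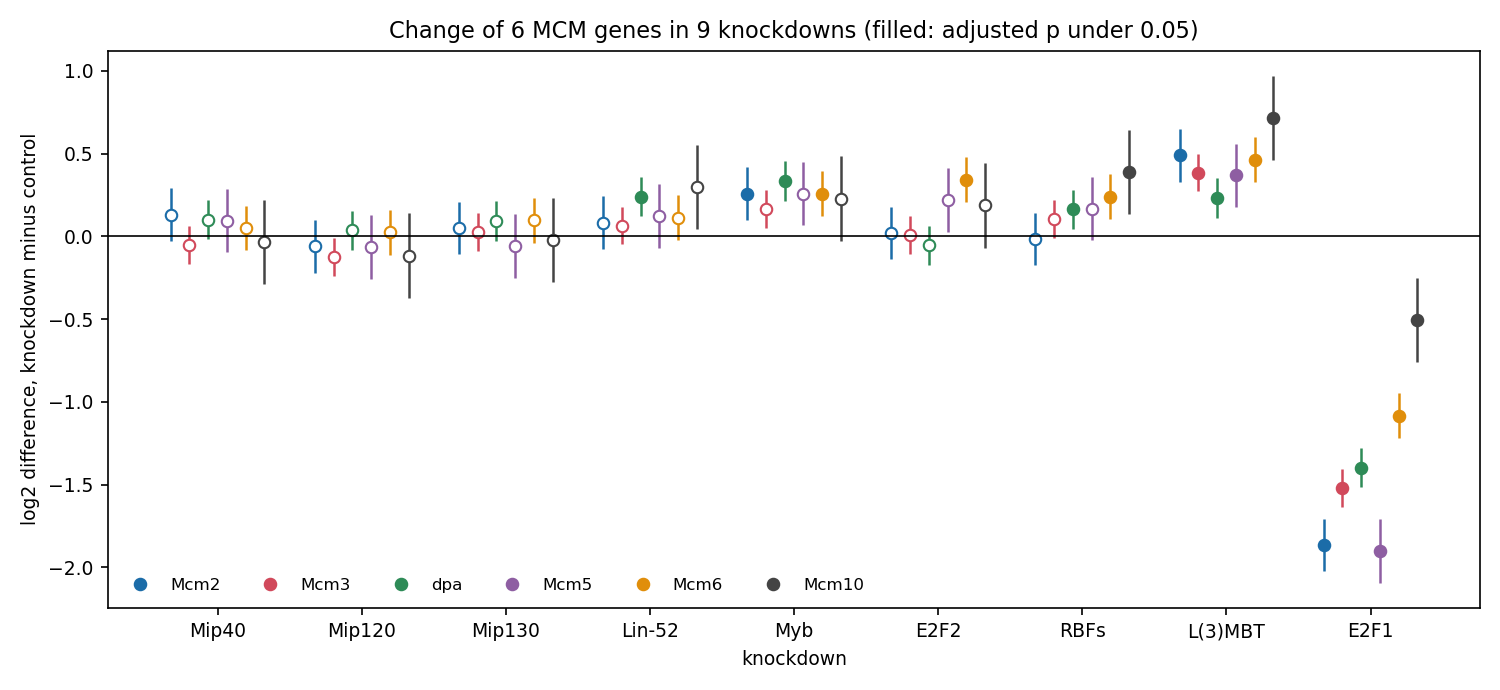
Log2 difference from Control (vertical axis) of the 6 MCM genes in each of 9 knockdowns, with 95% confidence intervals as bars and filled points where the limma adjusted p was under 0.05. The same 3 Control arrays serve all knockdowns. All points lie below 0 for E2F1 and above 0 for L(3)MBT, Myb and Lin-52, whereas those for Mip120 lie between -0.13 and 0.04.

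Depletion of Mip130, Mip40 or Mip120 left the MCM genes near their Control signals. In the Mip130 knockdown none of the 6 passed limma's test, 0 had an unadjusted p under 0.05, and the differences ran from -0.06 to 0.10, while 5.02% of probe sets were higher and 5.98% lower. In the Mip40 knockdown none passed and 0 had an unadjusted p under 0.05, with differences from -0.05 to 0.13, beside 6.99% higher and 8.92% lower. In the Mip120 knockdown none passed and 1, Mcm3 at -0.13, had an unadjusted p under 0.05, beside 8.67% higher and 10.5% lower. With array weights, 2 genes were called in that last comparison, Mcm3 and Mcm5, both lower, beside 2674 of all 7794 probe sets. Over these 3 knockdowns the 95% intervals of the MCM differences spanned -0.37 to 0.29, the widest being those of Mcm10.

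In the Lin-52 knockdown all 6 group means were above Control, by 0.07 to 0.30, and 1 of the 6 genes passed. The gene dpa had signals of 9.93, 9.94 and 10.02 on the Lin-52 arrays, all above Control, and rose by 0.24 (0.12 to 0.36, limma adjusted p = 0.00338). The background of this comparison was 8.74% of probe sets higher and 10.7% lower, and dpa was not called when only the 6 arrays of the comparison were fitted. Mcm10 had signals of 6.86, 6.97 and 6.58 and differed by 0.30 (limma adjusted p = 0.0957). Without the third Lin-52 array it was called too. In Lin-52 against Mip40 no member passed limma's test although 3 had an unadjusted p under 0.05, Mcm3, dpa and Mcm10. The background there was 7.13% higher and 5.98% lower. In Mip120 against Mip130 no member passed and 1 had an unadjusted p under 0.05, Mcm3 at -0.15, beside 1.33% higher and 1.01% lower.

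Over all 10 groups, limma's F-test called all 6 MCM genes, as it did 93.9% of all probe sets tested. The E2F1 group was lowest for all 6 genes and its arrays did not overlap those of the next group. On the deposited scale the L(3)MBT group was highest for 5 genes and came below Myb and Lin-52 for dpa. L(3)MBT was separate from the second group for Mcm2, Mcm3 and Mcm6, and overlapped it for Mcm5 and Mcm10.

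The place of E2F1 was the same after each of the 3 rescalings. That of L(3)MBT was not: after quantile normalization the Myb mean was above the L(3)MBT mean for Mcm3 and Mcm5 as well as dpa. For dpa the L(3)MBT group ranked 3 from the top as deposited and 2 after centring each array on its median. It ranked 8 of 10 after quantile normalization and 7 after cyclic loess.

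Between these ends most neighbours overlapped on the deposited scale. Mcm2 ran in falling order from Myb through Mip40, Lin-52, Mip130, E2F2, Control and RBFs to Mip120, with means from 8.90 to 8.58 and no neighbours separate. Mcm3 ran from Myb at 8.96 through RBFs, Lin-52, Mip130, E2F2, Control and Mip40 to Mip120 at 8.67, and only Control and Mip40 were separate neighbours. For dpa the order was Myb, Lin-52, L(3)MBT, RBFs, Mip40, Mip130, Mip120, Control and E2F2, from 10.06 to 9.67, with L(3)MBT, RBFs and Mip40 separate from one another. RBFs and Mip40 were barely so, with the lowest RBFs array at 9.8788 and the highest Mip40 array at 9.8779.

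Mcm5 ran from Myb at 8.43 through E2F2, RBFs, Lin-52, Mip40, Control and Mip130 to Mip120 at 8.10, and Mcm6 from E2F2 at 8.07 through Myb, RBFs, Lin-52, Mip130, Mip40 and Mip120 to Control at 7.72. In both, all of these neighbours overlapped. Mcm10 ran from RBFs at 6.90 through Lin-52, Myb, E2F2, Control, Mip130 and Mip40 to Mip120 at 6.39, also overlapping throughout. Mip120 was thus next above E2F1 for Mcm2, Mcm3, Mcm5 and Mcm10, while Control was next above it for Mcm6 and E2F2 for dpa.

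The members varied together over the 10 group means. Pearson's r between pairs of the 5 ring subunits ran from 0.94 to 0.99, and pairs with Mcm10 gave 0.74 to 0.84. These values describe 10 means of the same arrays and rest largely on the E2F1 group. Without it, r ran from 0.34 to 0.90 between ring subunits and from 0.56 to 0.92 with Mcm10. Without the L(3)MBT group as well, over 8 means, r ran from 0.18 to 0.83 between ring subunits, with a median of 0.60. Pairs with Mcm10 then gave 0.22 to 0.80, with a median of 0.70.

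Among 6386 other genes tested, those whose group means were most like the average MCM pattern were CG3430 (r = 0.990), Ts (r = 0.987), CG8142 (r = 0.985), Mat1 (r = 0.984) and Orc5 (r = 0.983). Ts encodes thymidylate synthase, which makes a DNA precursor, Mat1 a subunit of the kinase that activates cyclin-dependent kinases, and Orc5 a subunit of the origin recognition complex. Likeness here is of shape and not of size: over the 10 groups Ts spanned 1.98 log2 units and Mat1 0.59. Without the E2F1 and L(3)MBT groups, r over 8 means stayed at 0.96 for CG3430 and was 0.62 for Ts, 0.72 for CG8142, 0.57 for Mat1 and 0.81 for Orc5.

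**Figure D4:**
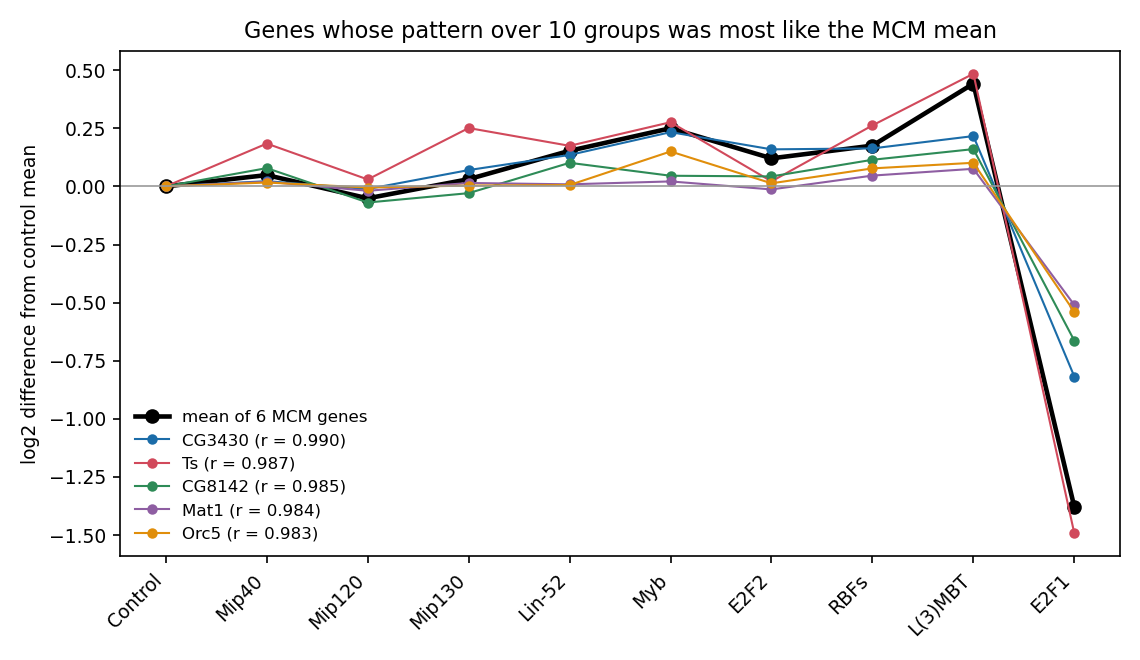
Log2 difference from the Control mean (vertical axis) over the 10 groups for the average of 6 MCM genes (black) and the 5 genes most like it. All lines drop in the E2F1 group, where the MCM average is -1.38, and those of Ts and the MCM average are the deepest.

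The partners that load and start the helicase were read from a list of 19 genes, of which 15 were tested. In the E2F1 knockdown 14 of the 15 fell, with a median of -0.63. The Cdt1 gene dup fell by 1.65 on the log2 scale, Orc2 by 1.25 and the GINS gene Sld5 by 1.12, and only chif, which encodes the partner of the Cdc7 kinase, did not pass, at 0.09. After cyclic loess 13 fell and 1 rose. A second list of 20 genes held genes of the replication fork and of nucleotide supply, and also the cyclin gene CycE. This list, called fork genes below, had 18 tested members. All 18 fell, or 17 after cyclic loess, with a median of -0.995 as deposited. All probe sets gave 31.3% lower. PCNA, the sliding clamp, fell by 1.80, the DNA polymerase alpha subunit PolA2 by 1.55, and Fen1, a nuclease that processes Okazaki fragments, fell by 1.201. The MCM median of -1.46 is lower than either list's, and the lists were not tested against one another.

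**Figure D5:**
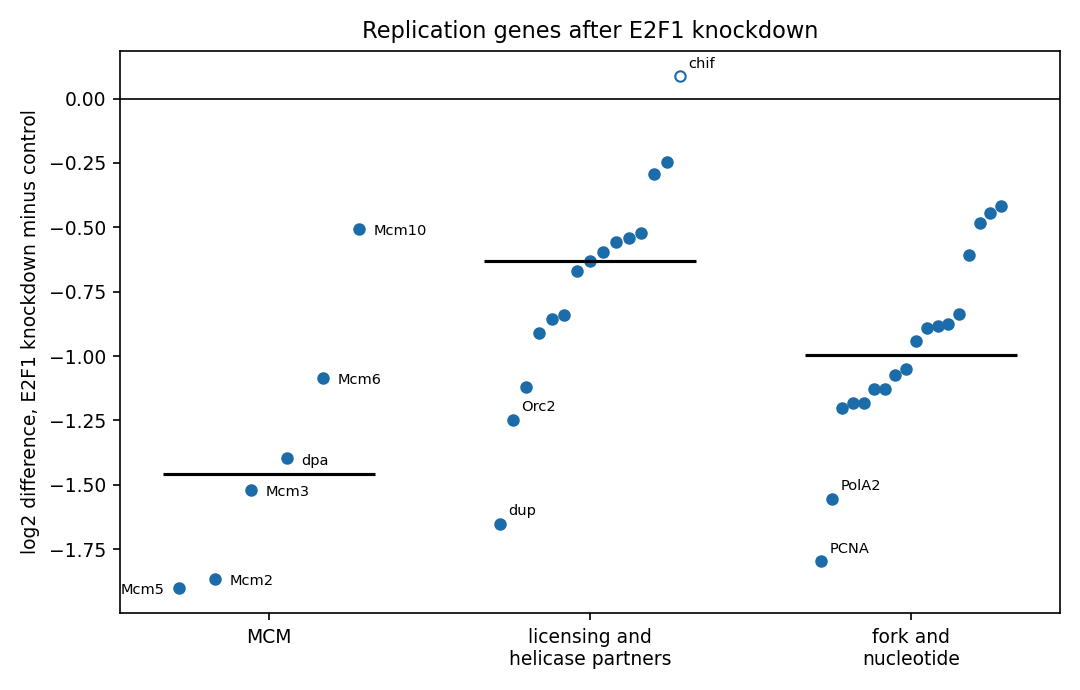
Log2 difference from Control (vertical axis) after E2F1 knockdown for the 6 MCM genes, 15 licensing and helicase-partner genes and 18 fork and nucleotide genes. The last list includes CycE. Each gene is a point in rank order, with list medians as lines and filled points where the limma adjusted p was under 0.05. Only chif lies above 0.

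In the L(3)MBT knockdown, where 38.9% of all probe sets were higher and 34.6% lower, 6 of the 15 licensing genes rose and 2 fell, a share of rises near that of all probe sets: dup rose by 1.26, Psf3 by 0.52 and Cdc7 by 0.45, while Orc2 fell by 0.22 and mus101 by 0.21. Of the 18 fork genes 11 rose and 1 fell. CycE (Cyclin E) rose by 1.26 and the clamp-loader genes Gnf1 and RfC3 by 0.80 and 0.64, while PolA2 fell by 0.39. The list medians were 0.07 and 0.20 as deposited, and 0.05 and 0.07 after quantile normalization, when 5 licensing genes rose and 3 fell and 8 fork genes rose and 4 fell.

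In the Myb knockdown, with 2.36% of all probe sets higher and 3.43% lower, 2 of the 15 licensing genes rose, dup by 0.41 and Cdc45 by 0.33, and the GINS gene Psf2 fell by 0.41. Of the 18 fork genes 6 rose and none fell, among them CycE by 0.60 and PCNA by 0.34. In the RBFs knockdown, with 11.5% higher and 11.9% lower, 5 of the 15 rose and 2 fell, and 6 of the 18 rose and 1 fell. The highest differences on these lists were 0.37 for dup and 0.59 for CycE, and the lowest were -0.36 for Sld5 and -0.28 for RfC4. In the E2F2 knockdown, with 16.4% higher and 9.12% lower, dup rose by 0.33 and mus101 fell by 0.14 among the 15, and 3 of the 18 fork genes rose, a share near that of all probe sets: PolE1, a DNA polymerase epsilon subunit, by 0.31, the DNA ligase gene DNAlig1 by 0.22 and PolA1 by 0.17.

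In the Lin-52 knockdown 4 of the 15 licensing genes rose and 1 fell, and 6 of the 18 fork genes rose, beside 8.74% of all probe sets higher and 10.7% lower. In the Mip120 knockdown, with 8.67% higher and 10.5% lower, 3 of the 15 rose, Psf3, Cdc7 and dup, and 3 of the 18 fell, RfC4, RPA2 and RfC38. In the Mip130 knockdown, with 5.02% higher and 5.98% lower, Psf3 rose of the 15, and PolE1 rose and RfC4 fell of the 18. In the Mip40 knockdown, with 6.99% higher and 8.92% lower, 0 of the 15 passed limma's test, 2 had an unadjusted p under 0.05, and 3 of the 18 fork genes rose, RPA3, RPA1 and PCNA. The gene rec, a fly relative of MCM8 that acts in meiotic recombination, fell by 0.33 in the E2F1 knockdown and by 0.25 in the L(3)MBT knockdown. Its differences did not pass the test in the other 7.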

How the data were processed

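Total RNA of 30 Kc cell samples was measured on Affymetrix arrays. The deposited values, which span 1.95 to 13.60, were taken as log2 signals because of that span; the log base, the summarization and the normalization are not given in the sources used here. GCOS 1.2.0 is named in the submitters' processing notes. The values were used as deposited; the medians of single arrays lay between 6.45 and 6.58. Precision is limited by how many arrays there are.

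Of 13966 probe sets other than 44 array controls, 12443 are assigned to 1 gene, 327 to several and 1196 to none. Probe sets above their array's median (percentile 50) on at least 3 arrays were tested, 7794 in all. A linear model with 10 group means and no covariates was fitted over all 30 arrays with limma 3.58.1 in R 4.3.3 (eBayes with a trend, 20 residual degrees of freedom), with 9 comparisons against Control and 6 direct ones, adjusted within each by Benjamini-Hochberg at 0.05. The procedure was tested on simulated data. Figures were drawn with matplotlib 3.10.9.

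Named genes are all MCM members with a probe set, their most alike genes, and on each pathway list up to 3 genes with the largest changes among those passing. The gene chif and members of counts of 5 or fewer were singled out after their values were seen. So were the partner and fork genes named for an E2F1 signal inside the background range. The members and lists were chosen with earlier results of these data known. Same-numbered arrays deviated together in 1 comparison, Myb against Control (correlations 0.21, 0.40 and 0.58), where the paired value stands beside the result. Even there, same-numbered arrays were not in every case each other's closest match, so a pairing of the arrays is not established. The closing section gives the alternatives. Promoter sequences were not used here.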

Additional observations from a re-analysis of the deposited data

How the results depend on the processing

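The counts of changed MCM genes were 6 in the main analysis and 5 to 6 under all alternatives for E2F1 against Control, for E2F2 and RBFs against E2F1 and for variation over the 10 groups, the 5 coming from the filter at percentile 70, which removed Mcm10. For L(3)MBT against Control the count was 4 to 6. Quantile normalization gave 2 genes for E2F2 against Control, 2 for RBFs against E2F2 and 1 for Mip120 against Mip130, and reversed dpa in L(3)MBT against Control (-0.056). Cyclic loess gave 2 for RBFs against E2F2. Array weights gave 2 for Mip120 against Control, 5 for Myb against Mip130, 1 for Mip120 against Mip130 and 2 for Lin-52 against Mip40. Fits to the 6 arrays of a comparison gave 0 for Lin-52 and 0 for Myb against Control, and leaving out the L(3)MBT arrays gave 1 for Lin-52 against Mip40. The causes were not tested. Leaving out each array in turn gave 0 to 2 genes for RBFs, 1 to 3 for Myb, 1 to 2 for E2F2 and 1 to 2 for Lin-52 against Control, 0 to 3 for Myb against Mip130 and 0 to 1 for Lin-52 against Mip40. Of 1515 single-gene values under the alternatives, 1451 stayed on the same side of the test's threshold, 38 lost the call, 25 gained it and 1 turned from a called rise to a negative value. A further 40 values that were not called in the main analysis changed sign, none of them past 0.06 in size.

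With the replicate block, 2 genes were called for Myb against Control, and 4 in a block fit to those 6 arrays that was added after seeing the data (Mcm5 gained its call, adjusted p = 0.0358). The block changed the call of no other MCM gene. Counts over all probe sets moved by more than 1.5 times mainly with array weights, for Mip40 from 1240 to 2515, for Mip120 from 1498 to 2674, for Mip130 from 857 to 1955, for Lin-52 from 1513 to 2302, for Myb from 451 to 766 against Control and for Myb against Mip130 from 970 to 2243. They also did for RBFs against E2F2 (1941 to 3010), Lin-52 against Mip40 (1022 to 1664) and Mip120 against Mip130 (183, between 73 and 1024 over all alternatives). The L(3)MBT count went from 5723 to 9542 without a filter and to 3745 with the filter at percentile 70. Fits to the 6 arrays of a comparison gave 639 for Lin-52 and 200 for Myb against Control and 665 for Lin-52 against Mip40. Leaving out the first Control array gave 566 for Mip130, and leaving out the E2F2 array with replicate number 3 gave 1324 for E2F2 against Control and 1232 for RBFs against E2F2, which was 1187 without the RBFs array of that number. Each gene had 1 probe set assigned to it alone, so other probe sets of the same gene could not be tried. Signals of Mcm10 near the background range limit its falls.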
